A study of Mus musculus with 4 samples.

Results

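The genes described here are 40 parts of the machinery that licenses, fires and copies replication origins, measured in mouse embryonic stem cells after knockdown of Kdm5b, the enzyme that strips H3K4 methylation. They were chosen by name, as the loci whose RefSeq identifiers map to the 40 symbols, and make up 40 of the 23697 loci in the deposited table; each symbol had 1 locus. The 2 knockdown libraries came from WW6 cells, a line of mixed C57/B6J, 129/Sv and SJL background, transiently transfected with small interfering RNA against Kdm5b. The 2 control libraries came from WW6 cells transfected in the same way with small interfering RNA against GFP, which the sample table calls a mock construct. Both groups grew without feeder cells on gelatin, in medium with serum and leukemia inhibition factor, and in each group the libraries are named A and B. The time between transfection and harvest is not given in the sources used here. The labels do not say whether A and B were separate cultures, so every p-value reflects library-to-library spread alone, which may be technical.

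In a dividing cell each origin is licensed once per cycle. The origin recognition complex (ORC), Cdc6 and Cdt1 load the MCM2-7 helicase onto DNA before S phase, and geminin then binds Cdt1 and blocks reloading. At the start of S phase Cdc45 and the GINS complex join MCM2-7 and switch the helicase on. Primase with DNA polymerase alpha starts each new strand, the clamp loader RFC places the PCNA ring that holds polymerases delta and epsilon, RPA coats the exposed strand, and Fen1 and Lig1 trim and join the Okazaki fragments. Embryonic stem cells spend much of their short cycle in S phase, and many of these genes are known targets of E2F transcription factors.

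Levels are given in FPKM, which divides fragments by transcript length and library size, so genes of different length can be set side by side. Kdm5b itself stood at 22.7 and 31.1 FPKM in the knockdown libraries, against 99.7 and 145 FPKM in the controls, so its knockdown mean was 22% of the control mean (log2 fold change -2.14, 95% interval -2.86 to -1.42). Adjusted by Benjamini-Hochberg over all loci, the limma adjusted p was 0.562. The stem cell markers Pou5f1, Sox2, Nanog, Zfp42, Esrrb, Tdgf1, Dppa5a and Utf1 lay between 89.4 and 1797 FPKM in every library, and 6 fibroblast markers summed to 3.91 and 2.37 FPKM in the knockdown libraries and 9.86 and 3.72 FPKM in the controls. The 6 endoderm markers summed to 2.32 and 2.57 FPKM in the knockdown libraries and 6.58 and 7.62 FPKM in the controls, and 5 of the 6 were listed at 0 in knockdown A. The part of such cells in the results was not tested. Knockdown A stands apart from the other libraries: judged by the steps between low FPKM values, its depth was 76.5% of that of control B, against 98.4% for knockdown B and 102% for control A. It listed 11953 loci at 0, against 8609 in knockdown B and 8131 and 8281 in the controls. In these bulk samples fewer cells in S phase and less RNA per cell cannot be told apart.

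All 40 genes were tested, and 0 were called changed. Their means over the 4 libraries ran from 15.2 FPKM for Gins3 to 187 FPKM for Mcm3, with a median of 56.9 FPKM, against 12.3 FPKM over the 11784 tested loci, those averaging 1 FPKM or more. Each value rested on an estimated 97.5 to 2385 fragments. By limma on log2(FPKM + 1), 0 of the 40 were higher in knockdown (0% of all loci tested) and 0 were lower (0.0339% of all loci tested) at an adjusted p under 0.05, and their limma adjusted p ran from 0.918 to 0.997. At an unadjusted limma p under 0.05 there was 1, Gins4, on the lower side; over both directions 2.46% of all loci tested passed. Fold changes are knockdown minus control on that log2 scale. Their median was 0.02 over the 40 genes and -0.03 over all loci tested. The 4707 other loci within the level range of the 40 had a median of 0.03, with 2510 above 0 and 2197 below. Above 0 lay 25 of the 40 genes (47.1% of all loci tested) and below 0 lay 15 (52.9% of all loci tested). This split became 18 above and 22 below with quantile normalization. Without control A it was 13 above and 27 below, and without knockdown A 22 above and 18 below. The plot of levels by library shows how closely the libraries overlap.

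**Figure D1:**
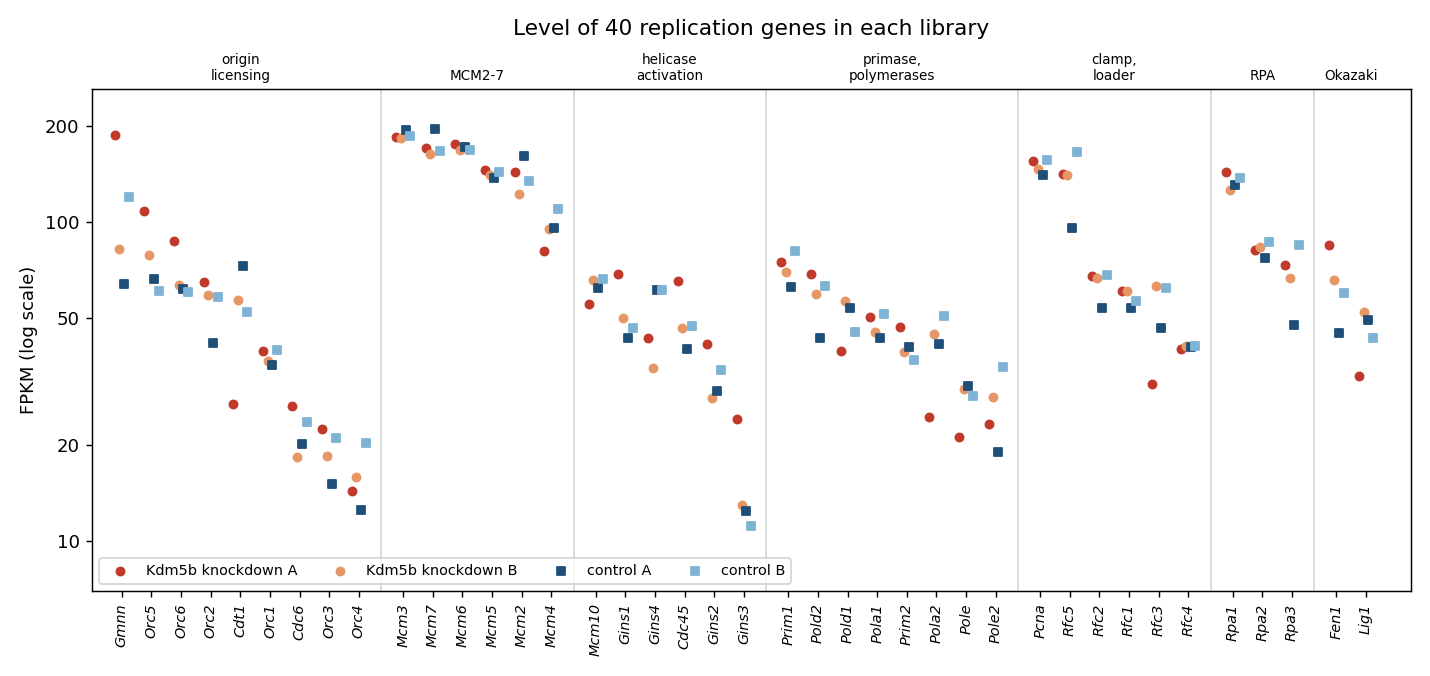
FPKM (log axis) of the 40 replication genes in the 2 Kdm5b knockdown libraries (circles) and the 2 control libraries (squares), grouped by role and ordered by mean level within a role. MCM2-7 genes sit highest as a group and their 4 points spread over at most 1.36-fold, while the points of Cdt1 and Gmnn spread over 2.71-fold and 2.94-fold.

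Fold changes of these genes were mostly small. The median absolute fold change was 0.15 on the log2 scale for the 40 genes, 0.29 over all loci tested and 0.22 over the 4707 other loci at levels between the lowest and the highest of these genes. None of the 40 reached a fold change of 1 log2 unit, which 8.36% of all loci tested and 2.72% of those 4707 loci did. For 30 of the 40 the whole 95% interval of the fold change lay within 1 log2 unit of 0. The share was 32.8% over all loci tested and 59.0% over those 4707 loci. Their median level was 33.1 FPKM, against 56.9 FPKM for the 40, so they share the range but are not matched by level. These are descriptions, with no test of the difference. The other 10, whose intervals leave room for a 2-fold difference, were Orc5, Cdt1, Gmnn, Cdc45, Gins1, Gins3, Gins4, Pola2, Rfc3 and Fen1. Both knockdown libraries lay above both controls for 7 genes (15% of all loci tested) and below both for 3 (16.9% of all loci tested). Over all loci tested 31.9% lay outside the control range in either direction, against 25% of the 40. Of the 4707 loci in the level range, 780 lay above both controls and 650 below both.

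**Figure D2:**
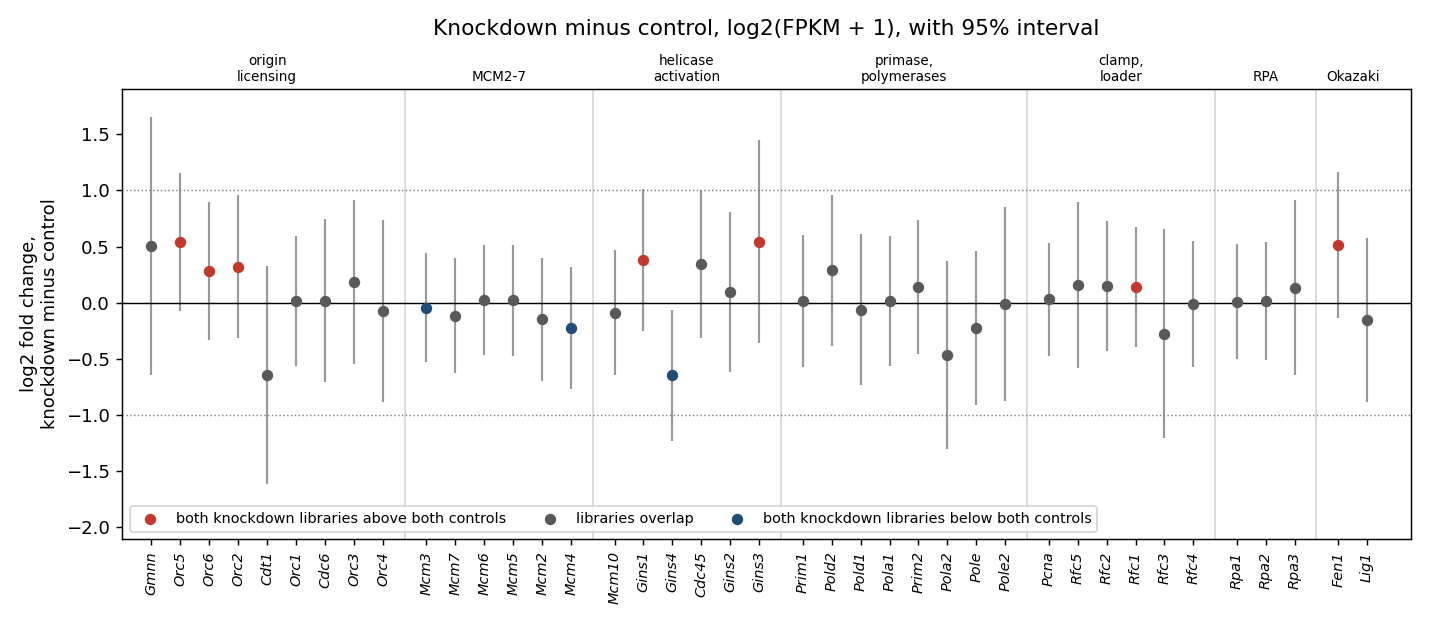
Log2 fold change of each replication gene, knockdown minus control on the log2(FPKM + 1) scale, with its 95% interval from limma; colours show whether the 2 knockdown libraries lie above both controls (red), below both (blue) or overlap them (grey), and dotted lines mark 1 log2 unit. All points lie between -0.64 and 0.54, and the interval of Gins4 alone leaves out 0.

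Promoter sequence was read for these genes because E2F sites are a feature many of them are known to share. Of the 40, 32 have an entry in the RefSeq promoter table (GRCm38.p6, from 250 bases before to 50 after each annotated start). Both strands were searched for 4 E2F-type words, TTTCCCGC, TTTGGCGC, TTTGCCGC and TTTCGCGC, which can overlap each other on opposite strands. At least 1 word was found in 14 of the 32 genes, 43.8%, against 2.61% of all 27025 genes in the table and 5.08% of the 9356 of them tested here. Of the 4 words, TTTGCCGC was found in 0 of the 32. The CCAAT word stood in 65.6% of the 32 and in 43.8% of the tested genes. Also searched were TTTGAA, in 15.6% of the 32 and 14.0% of the tested genes, and TTCGAA, in 6.25% and 2.52%. A match is a description of the letters and not a bound site. The median fold change was 0.00 for the 14 genes with a word, from -0.64 to 0.54, and 0.08 for the 18 without. The stretches below end before the transcription start and come from Mcm5, Mcm6 and Orc1, whose levels varied by under 1.2-fold over the libraries, and from Gins3, which varied by 2.15-fold. Words on either strand are in capitals. In Mcm5 and Mcm6 TTTGGCGC and TTTCGCGC overlap on opposite strands, the first letter lying 153 and 110 bases before the start, and Mcm6 has a further word 47 bases before it. Orc1 and Gins3 have their words 27 and 41 bases before the start.
Mcm5 (GRCm38.p6, chr8:75109326-75109397, plus strand): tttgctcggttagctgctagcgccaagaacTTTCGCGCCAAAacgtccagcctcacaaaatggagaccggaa
Mcm6 (GRCm38.p6, chr1:128359715-128359845, minus strand): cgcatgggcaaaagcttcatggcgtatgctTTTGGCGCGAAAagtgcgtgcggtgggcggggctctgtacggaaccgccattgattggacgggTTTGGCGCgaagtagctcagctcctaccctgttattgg
Orc1 (GRCm38.p6, chr4:108579397-108579453, plus strand): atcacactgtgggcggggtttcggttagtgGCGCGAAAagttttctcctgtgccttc
Gins3 (GRCm38.p6, chr8:95633488-95633555, plus strand): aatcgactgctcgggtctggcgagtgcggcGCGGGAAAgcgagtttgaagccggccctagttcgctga

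Of the 9 origin licensing genes, 7 had fold changes above 0 and 2 below (median 0.18, range -0.64 to 0.54), and 0 passed the test. Among ORC subunits, Orc5 (mm9 chromosome 5, 21992307 to 22056149, a locus interval shared with Gm15421) measured 108 and 78.5 FPKM in the knockdown libraries A and B, against 66.1 and 60.5 FPKM in control A and B. Neither knockdown library overlapped the controls. The log2 fold change was 0.54 (standard error 0.25). It was 0.31 without knockdown A and 0.77 without knockdown B. Orc2 and Orc6 also lay above both controls in both knockdown libraries. Orc2 was at 64.7 and 59.0 FPKM against 41.7 and 58.1 FPKM, and Orc6 at 87.1 and 63.5 FPKM against 61.5 and 60.4 FPKM. Knockdown B was thus close to control B for Orc2 and to both controls for Orc6. The log2 fold changes were 0.32 for Orc2 (standard error 0.26) and 0.28 for Orc6 (standard error 0.25). Orc1, the largest ORC subunit, stood at 39.45 and 36.6 FPKM in knockdown libraries and 35.6 and 39.7 FPKM in controls. Orc3 and Orc4 had the lowest ORC levels, means of 19.3 and 15.8 FPKM over the 4 libraries, and each shares a locus interval with another gene. Summed over the ORC subunits, levels were 336 and 272 FPKM in knockdown A and B and 233 and 259.97 FPKM in control A and B, so knockdown A was the high library and control A the low one. Cdc6, the loader that bridges ORC and the helicase, stood at 26.5 and 18.4 FPKM in knockdown and 20.2 and 23.6 FPKM in control libraries, which overlap.

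Cdt1 and its inhibitor Gmnn (geminin) were the most variable of the 40 genes. Cdt1 (mm9 chromosome 8, 125091915 to 125097030) measured 26.9 and 56.8 FPKM in the knockdown libraries A and B, against 72.7 and 52.2 FPKM in control A and B. Gmnn (mm9 chromosome 13, 24843714 to 24853806) measured 187 and 82.4 FPKM in the knockdown libraries A and B, against 63.8 and 119.6 FPKM in control A and B. The groups overlapped for both genes, and the order of the 4 libraries was exactly opposite, with knockdown A lowest for Cdt1 and highest for Gmnn and control A the reverse. Cdt1 transcripts per geminin transcript, as a ratio of FPKM, were 0.144 and 0.690 in knockdown A and B and 1.14 and 0.437 in control A and B. The log2 fold change was -0.64 for Cdt1 (standard error 0.40) and 0.50 for Gmnn (standard error 0.47). Without knockdown A these were -0.12 and -0.08, so the size of both rests on that library. Without control A they were -0.41 and 0.055. Knockdown A is also the library of lowest depth, and the part of depth in these values was not tested.

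The MCM2-7 helicase had the highest levels of the 7 role groups. Its 6 genes had means between 95.2 and 187 FPKM, and 5 of the 6 were among the 6 highest of the 40. Mcm3 (mm9 chromosome 1, 20793095 to 20810294) measured 185 and 183 FPKM in knockdown libraries and 193 and 186 FPKM in controls, a spread of 1.05-fold over all 4. Both knockdown values lay below both controls, by a log2 fold change of -0.04 (standard error 0.20, 95% interval -0.53 to 0.44). Mcm6 stood at 176 and 168 FPKM in knockdown and 171 and 168 FPKM in controls, and Mcm5 at 145 and 140 FPKM in knockdown and 137 and 143 FPKM in controls. These values overlap between the groups. Mcm4, the lowest of the 6, stood at 80.9 and 94.8 FPKM in knockdown libraries and 95.7 and 109.7 FPKM in controls, with both knockdown libraries on the lower side (log2 fold change -0.22, standard error 0.22). Without knockdown A it was -0.11, and -0.13 without control B. Mcm2 stood at 143 and 122 FPKM in knockdown and 161 and 134 FPKM in controls. Mcm7, whose locus also holds the microRNAs Mir25, Mir93 and Mir106b, stood at 170 and 163 FPKM in knockdown and 195 and 167 FPKM in controls. The helicase works as a ring with each of these subunits once, and its highest and lowest transcripts differed by 2.29-fold and 1.94-fold in knockdown A and B and 2.04-fold and 1.70-fold in control A and B. Summed over the ring, levels were 900 and 872 FPKM in knockdown and 953 and 908 FPKM in controls. The 6 fold changes had a median of -0.08 and ran from -0.22 to 0.02.

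Helicase activation held the gene with the smallest p of the 40. Gins4, the Sld5 subunit of GINS (mm9 chromosome 8, 24337082 to 24348140), measured 43.1 and 35.0 FPKM in the knockdown libraries A and B, against 61.2 and 61.3 FPKM in control A and B. These values rest on an estimated 162 and 168 fragments in knockdown A and B and 307 and 300.0 in control A and B. Both knockdown libraries lay well below the controls, which were almost equal. The means were 39.0 ± 5.78 FPKM in knockdown and 61.3 ± 0.0428 FPKM in control libraries (SD, n = 2 each). The log2 fold change was -0.64 (95% interval -1.23 to -0.06, limma adjusted p = 0.918), so it did not pass the test. With any 1 library left out the fold change lay between -0.79 and -0.50.

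The other GINS subunits did not share the lower level of Gins4 in knockdown. Gins1, the Psf1 subunit, stood at 68.8 and 50.0 FPKM in knockdown libraries and 43.3 and 46.5 FPKM in controls, with both knockdown libraries above both controls. Gins3, the Psf3 subunit (mm9 chromosome 8, 98157459 to 98168959), measured 24.1 and 13.0 FPKM in knockdown and 12.5 and 11.2 FPKM in controls (log2 fold change 0.54, standard error 0.37; 0.12 without knockdown A). Gins2, the Psf2 subunit, overlapped, at 41.5 and 28.1 FPKM in knockdown and 29.4 and 34.5 FPKM in controls. Its locus interval is shared with Gse1 and Mir7687. As a share of the GINS sum, Gins4 made up 24.3% and 27.7% in knockdown A and B and 41.8% and 39.9% in control A and B. The groups do not overlap in this share. It was chosen after the values were seen and was not tested, and with 2 libraries a group an exact permutation test could give no two-sided p under 0.333. The GINS sum itself overlapped, at 177 and 126 FPKM in knockdown and 146 and 153 FPKM in controls. Cdc45, the partner of GINS on the helicase, stood at 65.3 and 46.6 FPKM in knockdown libraries and 39.9 and 47.1 FPKM in controls. Mcm10, an initiation factor needed to start unwinding, stood at 55.3 and 65.7 FPKM in knockdown libraries and 62.1 and 66.2 FPKM in controls (log2 fold change -0.09, standard error 0.23).

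**Figure D3:**
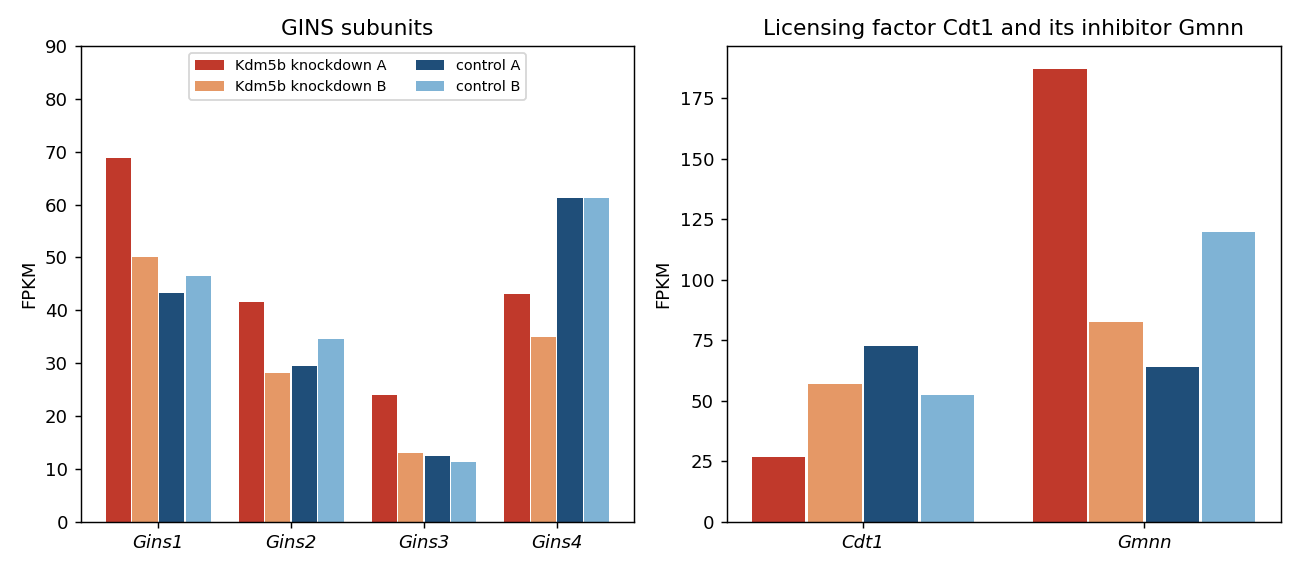
FPKM of the GINS subunits (left) and of Cdt1 and Gmnn (right) in each library, 1 bar per library, knockdown A and B in red and orange and control A and B in dark and light blue. Gins4 is at 43.1 and 35.0 FPKM in knockdown against 61.2 and 61.3 FPKM in controls while Gins1, Gins2 and Gins3 are highest in knockdown A, and Cdt1 and Gmnn run in opposite order over the libraries.

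Primase and polymerase genes divided evenly, 4 above 0 and 4 below (median 0.00, range -0.46 to 0.29), and the groups overlapped for all 8. Prim1, the catalytic primase subunit and the most abundant of them, stood at 74.6 and 69.5 FPKM in knockdown libraries and 62.3 and 81.3 FPKM in controls (log2 fold change 0.02, standard error 0.24). Pola1, the catalytic subunit of polymerase alpha, stood at 50.2 and 45.3 FPKM in knockdown and 43.3 and 51.4 FPKM in controls. Its regulatory partner Pola2 stood at 24.5 and 44.4 FPKM in the knockdown libraries A and B and 41.4 and 50.9 FPKM in control A and B, so knockdown A alone was low. The Pola2 log2 fold change was -0.46 (standard error 0.34) and -0.05 without knockdown A. The ratio of Pola1 to Pola2 was 2.05 and 1.02 in knockdown A and B and 1.05 and 1.009 in control A and B. The catalytic subunits of polymerases delta and epsilon, Pold1 and Pole, were likewise lowest in knockdown A, at 39.5 and 21.2 FPKM there. Pold1 stood at 56.4 FPKM in knockdown B and 53.8 and 45.2 FPKM in controls, and Pole at 29.9 FPKM in knockdown B and 30.5 and 28.5 FPKM in controls. The accessory subunits Pold2 and Pole2 and the primase subunit Prim2 had fold changes of smaller size than 0.30.

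Of the 6 clamp and loader genes, 5 had log2 fold changes of smaller size than 0.2. Pcna, the sliding clamp (mm9 chromosome 2, 132075022 to 132078916), measured 155 and 146 FPKM in knockdown libraries and 139.8 and 156 FPKM in controls, a log2 fold change of 0.03 (standard error 0.21, 95% interval -0.47 to 0.54). Rfc1, the large loader subunit, lay just above both controls in knockdown, at 60.6 and 60.8 FPKM against 53.7 and 56.5 FPKM. Rfc4, whose locus interval is shared with Eif4a2 and 2 small nucleolar RNAs, had the narrowest spread of the 40, 1.02-fold, at 39.97 and 40.9 FPKM in knockdown and 40.5 and 40.9 FPKM in controls. Rfc3 varied most of the loader, at 31.0 and 63.0 FPKM in the knockdown libraries A and B and 46.6 and 62.1 FPKM in control A and B (log2 fold change -0.28, standard error 0.38). It turned to 0.22 without knockdown A. Rfc2 and Rfc5 overlapped between the groups, each with control A lowest, and Rfc5 spread over 1.73-fold.

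RPA and Okazaki fragment genes completed the set. Rpa1, the largest RPA subunit, stood at 143 and 126 FPKM in knockdown libraries and 130.3 and 137 FPKM in controls (log2 fold change 0.01, standard error 0.21). Rpa2 ranged over 1.13-fold. Rpa3, the smallest subunit and a short transcript with the lowest estimated fragment number of the 40, stood at 73.3 and 66.7 FPKM in knockdown and 47.6 and 84.7 FPKM in controls (log2 fold change 0.14, standard error 0.32). For all 3 the groups overlapped. Fen1, the flap nuclease (mm9 chromosome 19, 10273622 to 10278433), measured 84.6 and 66.0 FPKM in knockdown A and B and 45.0 and 59.9 FPKM in control A and B. Both knockdown libraries lay above both controls (log2 fold change 0.52, standard error 0.27). It was 0.31 without control A, 0.34 without knockdown A and 0.72 without control B. Lig1, the ligase that seals the fragments, overlapped, at 32.8 and 52.3 FPKM in knockdown and 49.3 and 43.2 FPKM in controls.

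Libraries of the same group differed from each other at these genes. The median absolute difference between knockdown A and B was 0.24 on the log2 scale over the 40 genes, and 0.22 between control A and B, beside a median absolute fold change of 0.15 between the group means. Over all loci tested these gaps were 0.44 and 0.32, and over the 4707 other loci in the level range of the 40 they were 0.302 and 0.299. A difference between means of 2 libraries varies less than a difference between single libraries, so gaps and fold changes are not like for like. Knockdown A was the lowest library for 9 genes (39.2% of all loci tested, 30.5% of those 4707). It was the highest for 16 (33.2% of all loci tested, 35.3% of those 4707). Control A was the lowest for 19 (26.3% of all loci tested, 37.4% of those 4707). The median deviation from the 4-library mean was 0.06 and -0.01 in knockdown A and B and -0.10 and 0.07 in control A and B. Summed over the 40 genes, levels were 3036 and 2825 FPKM in knockdown A and B and 2703 and 2982 FPKM in control A and B, so the groups overlapped. The order of the 40 genes by level was alike in all libraries, with Spearman's rho across genes, which are not independent replicates and share their lengths, from 0.822 between knockdown A and control A to 0.958 between knockdown B and control B.

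Of the 62 other replication genes on 8 lists, all were tested and 0 passed in either direction by limma adjusted p (0% of all loci tested higher and 0.0339% lower), while 1, Rnaseh2a, stood at an unadjusted limma p under 0.05 (2.46% of all loci tested). Their median fold change was -0.04, with 27 above 0 and 35 below, and both knockdown libraries lay above both controls for 6 (15% of all loci tested) and below both for 10 (16.9% of all loci tested). Among origin firing genes the fold change of Cdk2, the S-phase kinase, was -0.71 on the log2 scale and that of Mtbp, a partner of Ticrr in helicase activation, -0.58. Cdk2 was -0.24 without knockdown A. Among polymerase and nuclease subunits Rnaseh2a, the catalytic subunit of ribonuclease H2, stood at 12.8 and 23.1 FPKM in knockdown libraries and 29.6 and 42.7 FPKM in controls, so both knockdown libraries were lower. Its log2 fold change was -1.004, and -0.60 without knockdown A.

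Pold4, a small polymerase delta subunit, was at 0.424 FPKM in knockdown A, 10.2 FPKM in knockdown B and 9.21 and 6.501 FPKM in controls. Dscc1, part of the alternative loader built around Chtf18, was at 2.18 FPKM in knockdown A, 13.8 FPKM in knockdown B and 16.3 and 10.7 FPKM in controls. E2f7, a repressor of the E2F family, was listed at 0 in knockdown A, at 4.54 FPKM in knockdown B and at 6.26 and 3.51 FPKM in controls. All 3 were low in knockdown A alone. Knockdown B lay between the controls for Dscc1 and E2f7 and above both controls for Pold4. E2f5 had the highest fold change of the 62, at 31.2 and 21.7 FPKM in knockdown libraries and 13.6 and 17.2 FPKM in controls (0.73, standard error 0.31; 0.48 without knockdown A). Of nucleotide supply genes, the fold change of thymidine kinase Tk1 was -0.63 on the log2 scale, and -0.36 without control B. That of deoxycytidine kinase Dck was -0.69, and 0.070 without knockdown A. Rrm1 and Rrm2, the large and small subunits of ribonucleotide reductase, lay above both controls with fold changes of 0.30 and 0.31. Chaf1b and Asf1b, which place histones behind the fork, stood at -0.36 and 0.31, and without knockdown A at -0.17 and -0.051. The fork protection and checkpoint genes Tipin and Chek1 stood at 0.31 and 0.28, where Tipin was -0.13 without control A and Chek1 0.061 without knockdown A. Chtf18 stood at 0.28, and at -0.028 without knockdown A. Of the MCM paralogs outside the ring Mcm8 stood at 0.32 and Mcm9 at -0.95, and without knockdown A at 0.17 and -0.44. None of these passed the limma test.

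The 24 mitosis genes, the list closest in cell cycle role, are given for comparison. Of the 40 replication genes 0 were called, and of the mitosis genes 0 (0% of all loci tested higher and 0.0339% lower). The median absolute fold change was 0.15 for the replication genes and 0.13 for the mitosis genes. Both knockdown libraries lay above both controls for 7 of 40 replication and 1 of 24 mitosis genes (15% of all loci tested), and below both for 3 of 40 replication and 7 of 24 mitosis genes (16.9% of all loci tested). Ube2c, the ubiquitin-conjugating enzyme of mitotic exit, stood at 169 and 138 FPKM in knockdown libraries and 238 and 236 FPKM in controls. It was the 1 mitosis gene at an unadjusted limma p under 0.05 (2.46% of all loci tested over both directions). The difference between the lists was not tested.

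**Figure D4:**
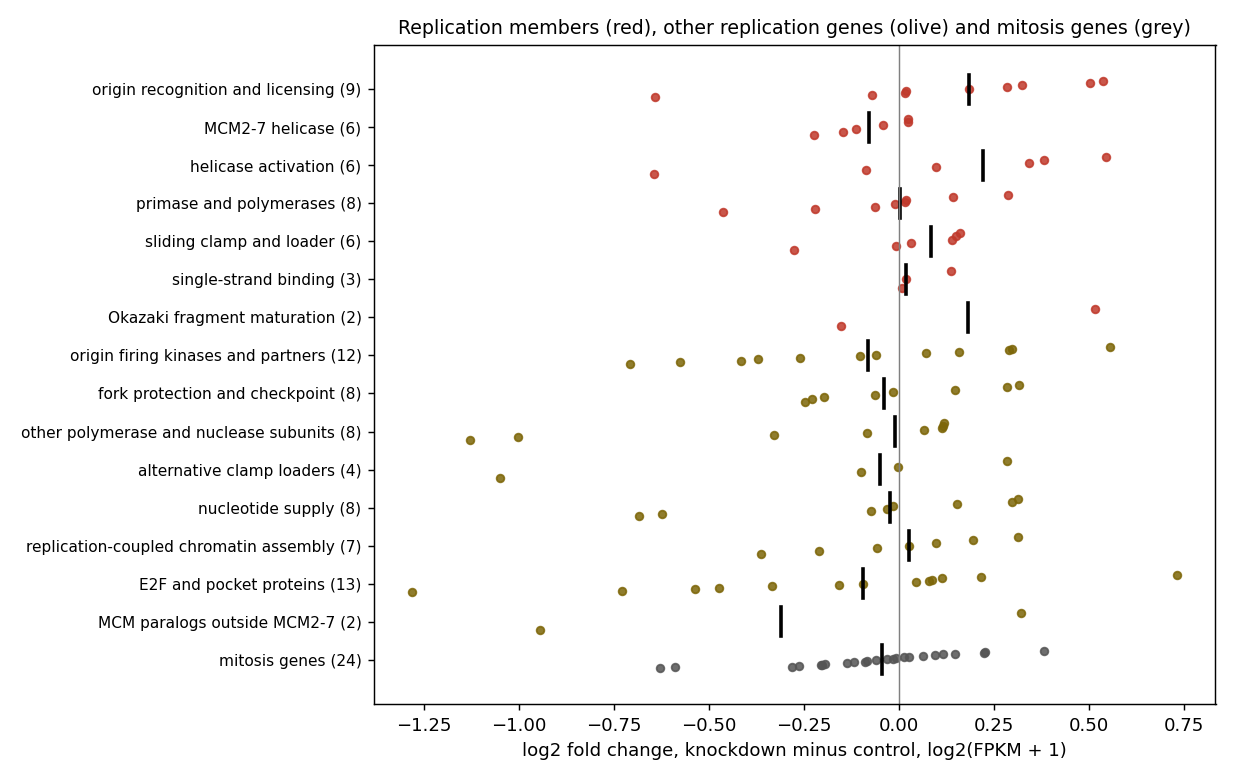
Log2 fold change, knockdown minus control on the log2(FPKM + 1) scale, of each gene in the 7 role groups of the 40 replication genes (red), the 8 other replication lists (olive) and the mitosis list (grey), with the number of genes in brackets; each point is 1 gene and black bars are list medians. List medians of the red groups lie between -0.08 and 0.22, and points below -1 are Rnaseh2a, Dscc1, Pold4 and E2f7, all on the olive lists.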

How the data were processed

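Strand-marked libraries were made from ribosomal-RNA-depleted RNA, per the labels' protocols. The authors deposited 1 table of FPKM per locus and library, made with Cufflinks and Cuffdiff on the mm9 build, per the submitters' processing notes; versions, the aligner and strand use in counting were not given in the sources used here. Overlapping and antisense genes may therefore share fragments (9 of the 40 share a locus interval). An exact 0 can be a failed estimate. Symbols came from RefSeq identifiers with a GRCm38.p6 table, which named 23237 of 23697 loci with 1 symbol; starts were moved by 1 base to count from 1. Depth, an estimated 3.26 in knockdown A, 4.19 in knockdown B, 4.36 in control A and 4.26 in control B (each in units of 1e6 fragments), came from the steps of low FPKM values, where 78.9% to 81.9% lay within 0.15 of a whole fragment.

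Loci averaging 1 FPKM or more entered the test, run on log2(FPKM + 1), which shrinks the fold changes of low genes, with limma 3.58.1 in R 4.3.3 (group term, eBayes with trend, two-sided, Benjamini-Hochberg over all loci). The code was tested on simulated data. Text values come from Python 3.11.15, pandas 2.3.3 and numpy 2.4.6, figures from matplotlib 3.10.9. Members, lists and tests were chosen with earlier results of these data known. Full values are given for the member with the highest mean and the one with the largest absolute fold change in each role, and for those outside the control range with an absolute fold change of at least 0.5; from each other list the 2 genes with the largest absolute fold change are named. Rrm1, Rrm2, Ube2c and the further members were named after their values were seen. Settings varied were the pseudocount (0.1, 0.01), the filter (none, 5 FPKM), upper-quartile and quantile scaling, eBayes (without trend, robust), the replicate letter as a block, and each library left out.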

Additional observations from a re-analysis of the deposited data

How the results depend on the processing

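No alternative called any of the 40 replication genes. The number of loci called was 4, and it became 140 with no filter on low values, 2 with eBayes without trend, 7 with the replicate block and 0 to 134 with 1 library left out. The letters A and B are treated as a shared name only, as the labels tie them to nothing else (correlation of same-letter deviations -0.07 over 11784 loci), and the replicate block left the count of replication genes at 0. The median fold change of the 40 stayed at 0.02 to 0.03 under the pseudocounts, filters and upper-quartile scaling, was -0.0061 with quantile normalization, and ran from -0.024 without control A to 0.12 without control B. Genes outside the control range numbered 10 (31.9% of all loci tested), and 8 with upper-quartile scaling (32.1% of all loci tested). Those below both controls, which were Mcm3, Mcm4 and Gins4, then fell from 3 to 1. With 1 library left out 18 to 29 lay outside. A lone library is then set against a pair, and overlap is less frequent by construction at any locus. No result is drawn from those counts. Signs of the fold change turned for 17 of the 40 without knockdown A, 14 without control A and 9 with quantile normalization. Only genes given in full or named from the other lists are covered by the values that follow. Quantile normalization turned Pcna to -0.014, Prim1 to -0.0068 and Rpa1 to -0.032. Leaving out 1 library gave ranges that cross 0 for Pcna (-0.046 to 0.11), Prim1 (-0.17 to 0.21), Rpa1 (-0.081 to 0.10), Rpa3 (-0.27 to 0.55), Mcm10 (-0.21 to 0.036), Gmnn (-0.085 to 1.09), Rfc3 (-0.78 to 0.22), Asf1b (-0.051 to 0.68), Chtf18 (-0.028 to 0.59), Tipin (-0.13 to 0.76), Dck (-1.44 to 0.070), Dscc1 (-2.16 to 0.057) and Pold4 (-2.62 to 0.36); the cause was not tested. With 2 libraries a group, differences under about 0.62 log2 units, the median half-width of the unadjusted 95% intervals of the 40, are not resolved. Larger differences can also go uncalled after adjustment over all loci. Kdm5b itself, at a log2 fold change of -2.14, had a limma adjusted p of 0.562.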
